A study of Mus musculus with 6 samples.

Results

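Potassium channel genes were described in mouse dendritic cells that had been cultured on spleen stroma, set against mature dendritic cells that had not. They were taken as every gene of the deposited table whose symbol begins with Kcn, which gave 42 of 15282 genes. Of these, 18 had at least 50 reads in at least 1 group, of which 16 are described one by one, and 24 stayed under 50 reads in both groups and are only counted. The cells came from wild-type C57BL/6 mice. For diffDC, marrow cells were grown for 6 days with IL-4 and GM-CSF, matured with lipopolysaccharide (LPS, a bacterial cell wall product) for 24 hours, selected for the integrin CD11c with magnetic beads and then cocultured with spleen stroma during 9 further days. For maDC, the same culture was stopped after the CD11c selection, so that both groups had been exposed to LPS. The diffDC cells were thus taken 9 days later after LPS than the maDC cells. No group was kept for those days without stroma, so stroma contact and the added time cannot be told apart. The labels give 3 libraries per group and do not say whether they came from separate cultures.

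Each group came as a single pooled column of reads, which summed to 89836110 for diffDC and 69190437 for maDC. No difference could be checked against the spread between libraries, so no p-value is given. Each ratio of diffDC over maDC was scaled with TMM, a method that sets the library sizes from the bulk of genes, and carries an exact 95% interval that covers counting error only. A gene was called when its ratio was at least 2-fold and the interval excluded no difference.

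Potassium channels let potassium leave the cell along its gradient and so set the negative membrane potential. In leukocytes that potential drives calcium entry through store-operated channels, and potassium loss is a known trigger of the NLRP3 inflammasome in mouse macrophages. Each pore is built from subunits that share a short selectivity filter. Voltage-gated, calcium-activated and inward-rectifier subunits carry a single copy and assemble as tetramers, and tandem-pore subunits carry a pair of copies and assemble as dimers. Auxiliary subunits have no filter and tune the pore they bind.

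The filter was visible in the gene sequences and separated pore-forming from auxiliary members. A script searched the longest reading frame of each gene in the GENCODE M21 transcripts for serine or threonine, any residue, then glycine, an aromatic residue or leucine, and glycine. All 15 pore-forming or silent members with at least 50 reads held a match, and 0 of the 3 auxiliary members did. Only Kcnk6 and Kcnk13, both tandem-pore genes, held 2 matches, and the second of Kcnk6 matched only because leucine was allowed. The stretches below are 33 bases of coding sequence from pore-forming members with many reads or wide differences, and capitals mark the 3 codons from the first glycine of the match to the last. The middle capital codon reads tyrosine in most of them, phenylalanine in Kcnh3 and Kcnk13, and leucine in the second stretch of Kcnk6.
Kcna3: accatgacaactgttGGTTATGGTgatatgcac
Kcnj2: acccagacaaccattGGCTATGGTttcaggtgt
Kcnk6, first: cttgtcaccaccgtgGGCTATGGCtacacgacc
Kcnk6, second: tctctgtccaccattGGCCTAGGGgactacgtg
Kcnk13, first: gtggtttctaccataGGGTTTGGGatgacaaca
Kcnh3: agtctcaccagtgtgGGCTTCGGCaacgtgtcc
Kcng3: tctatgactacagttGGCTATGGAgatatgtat

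In outline, the inward rectifiers Kcnj2 and Kcnj10, the tandem-pore gene Kcnk13 and the auxiliary genes Kcnab1, Kcnab2 and Kcne3 were higher in diffDC. The small-conductance genes Kcnn1 and Kcnn3, the silent subunits Kcng2 and Kcng3 and most low-level voltage-gated genes were lower. The leukocyte channels Kcna3 and Kcnn4 and the tandem-pore gene Kcnk6 did not reach the size limit. In counts, 7 of the 18 genes were called higher and 8 lower, and 3 were not called. Over all 12638 genes with at least 50 reads in a group, 24.8% were called higher, 19.2% lower and 43.9% in either direction. The members' counts cannot be read against these shares directly, because 4 members reached 50 reads only in diffDC and 5 only in maDC. Such genes entered through the group where their reads were higher, which favours genes that differ. Of the 12638 genes, 1064 reached the limit only in diffDC and 564 only in maDC, a smaller part than among the members. Among the 9 members with at least 50 reads in both groups, 3 were called higher, 3 lower and 3 not, beside 19.6% higher, 17.0% lower and 36.6% in either direction among the 11010 genes that met the same limit. The median log2 ratio of the 18 genes was 0.05, against 0.09 over all genes with the same read limit. The median over all 42 genes, most of them at a few reads, was -1.18, against 0.03 for all genes with a read.

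**Figure D1:**
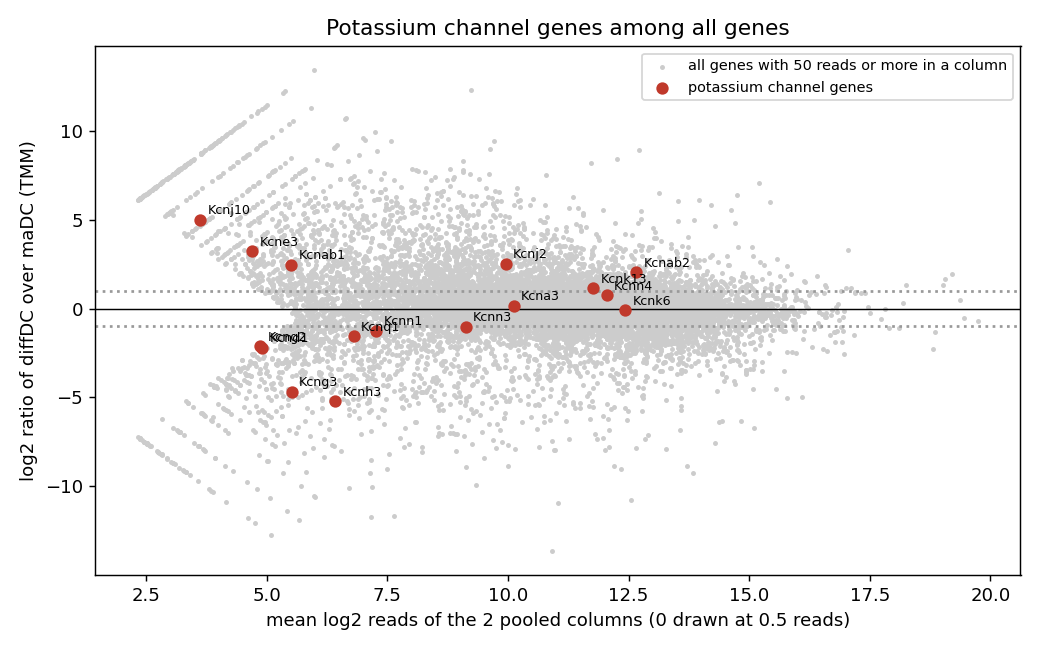
Log2 ratio of diffDC over maDC (y axis, TMM scaling) against the mean log2 reads of both pools (x axis), for 12638 genes in grey and 16 potassium channel genes in red. Kcnab2, Kcnk6, Kcnn4 and Kcnk13 lie at the high-read end near or above 0, and Kcnh3 and Kcng3 lie lowest, at -5.22 and -4.68.

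Other cells may contribute to either pool. In bulk RNA, more cells of a type and more RNA per cell cannot be told apart. Of 20 listed stroma markers, 16 had at least 50 reads, and 12 of these were higher and 2 lower in diffDC, with a summed level of 2299 CPM (reads relative to the scaled library) in diffDC and 180 CPM in maDC. Col3a1 had 26756 reads in diffDC and 26 in maDC. The stroma list held no gene at 0 among those in the table. Mural cell markers summed to 20.7 CPM in diffDC and 3.21 CPM in maDC, and neural and glial markers to 92.5 CPM in diffDC and 67.4 CPM in maDC. Without its most abundant gene the neural and glial sum was 5.80 CPM in diffDC and 0.90 CPM in maDC. The endothelial, mast cell, granulocyte and erythroid lists were lower in diffDC. Endothelial markers summed to 44.6 CPM in diffDC and 192 CPM in maDC, with 5 of 6 genes lower and 1 higher. Mast cell and basophil markers summed to 3.96 CPM in diffDC and 55.5 CPM in maDC, with 2 of 2 lower. Granulocyte markers summed to 26.9 CPM in diffDC and 48.7 CPM in maDC, with 5 of 8 lower and 2 higher. Erythroid markers summed to 0.083 CPM in diffDC and 2.48 CPM in maDC. T and B cell markers differed little, at 3.17 CPM in diffDC and 2.88 CPM in maDC. Dendritic cell markers were lower for 9 of 10 genes, while Itgax, which encodes CD11c, stood at 360 CPM in diffDC and 416 CPM in maDC, a log2 ratio of -0.21 that turned to 0.23 with the authors' library factor. Macrophage markers were higher for 7 of the 9 genes with enough reads, and Adgre1, which encodes F4/80, had 116052 reads in diffDC and 22332 in maDC. The part of RNA from any of these cells in the potassium channel values, higher or lower, was not tested.

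Kcna3 had the highest level per length of the voltage-gated pore subunits in both groups. Kcna3, the delayed rectifier of lymphocytes and other leukocytes, had 1430 reads in diffDC and 861 reads in maDC. The scaled difference was 1.12-fold (interval 1.03 to 1.22), short of the size limit, with levels per length of 7.58 in diffDC and 6.75 in maDC (RPKM, reads per kb of gene length relative to the scaled library). Kcna3 spans chr3:107036169-107038070 on the plus strand in GRCm38, and Kcna2 lies 63075 bases downstream with under 50 reads in both groups.

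Kcnh3, Kcnq1 and Kcnd1, which are also voltage-gated, fell. Kcnh3 and Kcnd1 reached 50 reads only in maDC, so they entered through the group where they were higher. Of the 12 voltage-gated genes, 6 stayed under 50 reads in both groups. Kcnh3, an ELK-type channel known mainly from neurons, had 17.07 reads in diffDC and 429.68 in maDC, 37.2-fold lower (interval 23.1 to 64.8). It was the sixth of the 18 genes by level per length in maDC, at 1.51, and the seventeenth in diffDC, at 0.041. The exons of Kcnh3 overlap those of Mcrs1 on the opposite strand. Mcrs1 had 4601 reads in diffDC and 3912 in maDC, and the sources used here do not say whether the counting used strand, so some Kcnh3 reads could belong to Mcrs1. Kcnq1, which pairs with Kcne subunits in epithelia and heart, had 79 reads in diffDC and 158 in maDC, 2.95-fold lower (interval 2.24 to 3.92). Its exons overlap Kcnq1ot1, a long antisense transcript, and the same limit applies. In all, exons of 9 of the 18 genes overlap another gene in the GENCODE M21 annotation. Besides Kcnh3 and Kcnq1, they include Kcnn1, Kcng2 and the auxiliary genes Kcnab1, Kcnab2 and Kcne3. The gene that overlaps Kcnab2 lies on the same strand. Kcnd1, which gives rapidly inactivating A-type current, had 17 reads in diffDC and 53 in maDC, 4.61-fold lower (interval 2.63 to 8.49).

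The silent subunits Kcng2 and Kcng3 fell. Both reached 50 reads only in maDC, so they entered through the group where they were higher, and 2 further silent subunits stayed under 50 reads. Silent subunits form no channel alone and modify the voltage-gated subunits they join. Kcng3 had 11 reads in diffDC and 191 in maDC, 25.7-fold lower (interval 14.0 to 52.3). Kcng2 had 17 reads in diffDC and 50 in maDC, 4.35-fold lower (interval 2.46 to 8.04). Kcng2 and Kcnd1 sit just inside the read limit and Kcnab3 just outside it, the last with 24 reads in diffDC and 41 in maDC.

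Among calcium-activated genes, Kcnn4 stood apart from its relatives Kcnn1 and Kcnn3 in level and in direction. Kcnn4, the intermediate-conductance channel of red cells, T cells and macrophages, had 6633 reads in diffDC and 2698 in maDC. It was 1.66-fold higher (interval 1.59 to 1.74) and was not called, but reached a log2 ratio of 1.17 with the authors' library factor, which passes. By level per length it ranked first of the 18 genes in maDC, at 21.1, and second in diffDC, at 35.1. Kcnn3, a small-conductance channel, had 476.61 reads in diffDC and 650.69 in maDC, 2.02-fold lower (interval 1.79 to 2.27). Kcnn1, also of the small-conductance group, had 122 reads in diffDC and 196 in maDC, a log2 ratio of -1.25 (interval -1.59 to -0.91). Both falls lie near the size limit and were lost with the authors' library factor, at log2 ratios of -0.58 and -0.81, and the fall of Kcnn3 also with total reads, at -0.83.

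The inward rectifiers Kcnj2 and Kcnj10 rose. Kcnj10 reached 50 reads only in diffDC, and the other 4 of 6 inward rectifiers stayed under 50 reads in both groups. Kcnj2, a strong rectifier that holds the resting potential of muscle and macrophages, had 2894 reads in diffDC and 339 in maDC, 5.78-fold higher (interval 5.16 to 6.49). Its level per length was 5.54 in diffDC and 0.96 in maDC. Kcnj2 spans chr11:111066164-111076821 on the plus strand, with Kcnj16 38195 bases upstream, which stayed under 50 reads in both groups. Kcnj10, the rectifier of astrocytes and kidney tubules, had 84.4 reads in diffDC and 1.8 in maDC, 31.7-fold higher (interval 7.63 to 239). Its reads were few, at 0.16 RPKM in diffDC and 0.0051 RPKM in maDC.

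The tandem-pore genes Kcnk6 and Kcnk13 were among the 4 highest members per length in both groups. Kcnk6, which carries potassium out of mouse macrophages during NLRP3 activation, had 6547 reads in diffDC and 4678.02 in maDC. Its log2 ratio was -0.08 (interval -0.13 to -0.02), and it turned to 0.36 with the authors' library factor and 0.11 with total reads, so no direction is given. Kcnk13, a halothane-inhibited channel that sets the resting potential of microglia, had 6291 reads in diffDC and 1948 in maDC, 2.19-fold higher (interval 2.08 to 2.30). In level per length, Kcnk13 stood at 21.3 in diffDC and 9.76 in maDC, and Kcnk6 at 16.7 in diffDC and 17.6 in maDC. Kcnk13 was thus above Kcnk6 in diffDC and below it in maDC, beyond counting error in both. Kcnk13 spans chr12:99964499-100062682 on the plus strand and Kcnk6 chr7:29221926-29232515 on the minus strand.

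**Figure D2:**
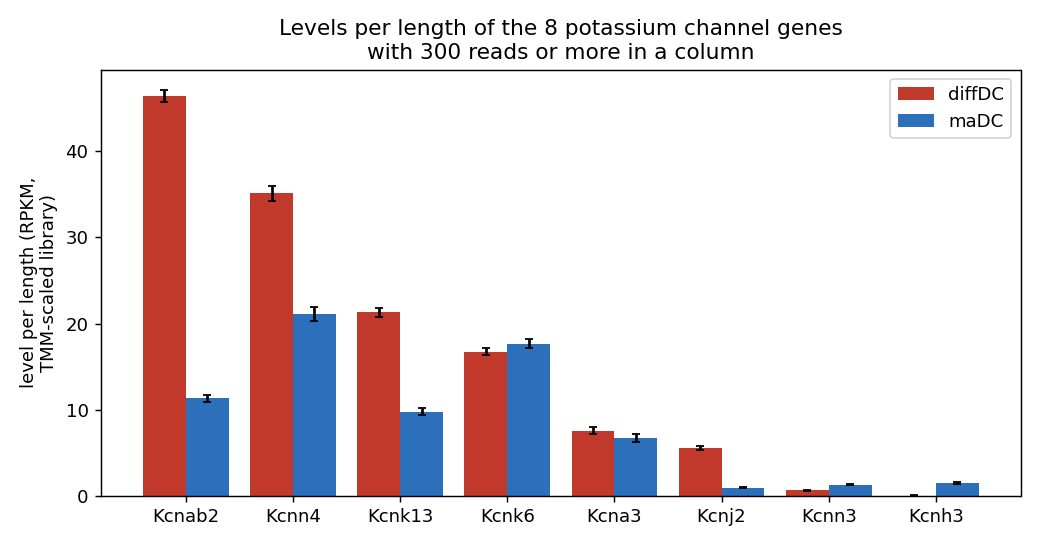
Level per length (RPKM, y axis from 0) of the 8 potassium channel genes with 300 reads or more in a group, diffDC in red and maDC in blue, with 95% counting intervals from the pooled reads. Kcnab2 is highest in diffDC, at 46.4, and Kcnn4 in maDC, at 21.1.

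The auxiliary genes Kcnab1, Kcnab2 and Kcne3 rose. Only Kcnab2 had at least 50 reads in both groups. Kcnab1 and Kcne3 reached the limit only in diffDC, and 5 further auxiliary genes stayed under it. Kcnab2, a cytoplasmic beta subunit of Kcna channels with the fold of an aldo-keto reductase, had 15973 reads in diffDC and 2636.37 in maDC, 4.10-fold higher (interval 3.94 to 4.28). It held the most reads of the family in diffDC, 38.8% of all Kcn reads (exact interval 38.3 to 39.3), against 17.2% in maDC (interval 16.6 to 17.8). Its level per length was 46.4 in diffDC and 11.3 in maDC, above that of Kcna3 in both groups. Kcnab1, its close relative, had 130 reads in diffDC and 16 in maDC, 5.50-fold higher (interval 3.26 to 9.91). Kcne3, a single-span partner of Kcnq1, had 97 reads in diffDC and 7 in maDC, 9.38-fold higher (interval 4.38 to 23.9). Kcnq1 itself was among the genes that fell.

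**Figure D3:**
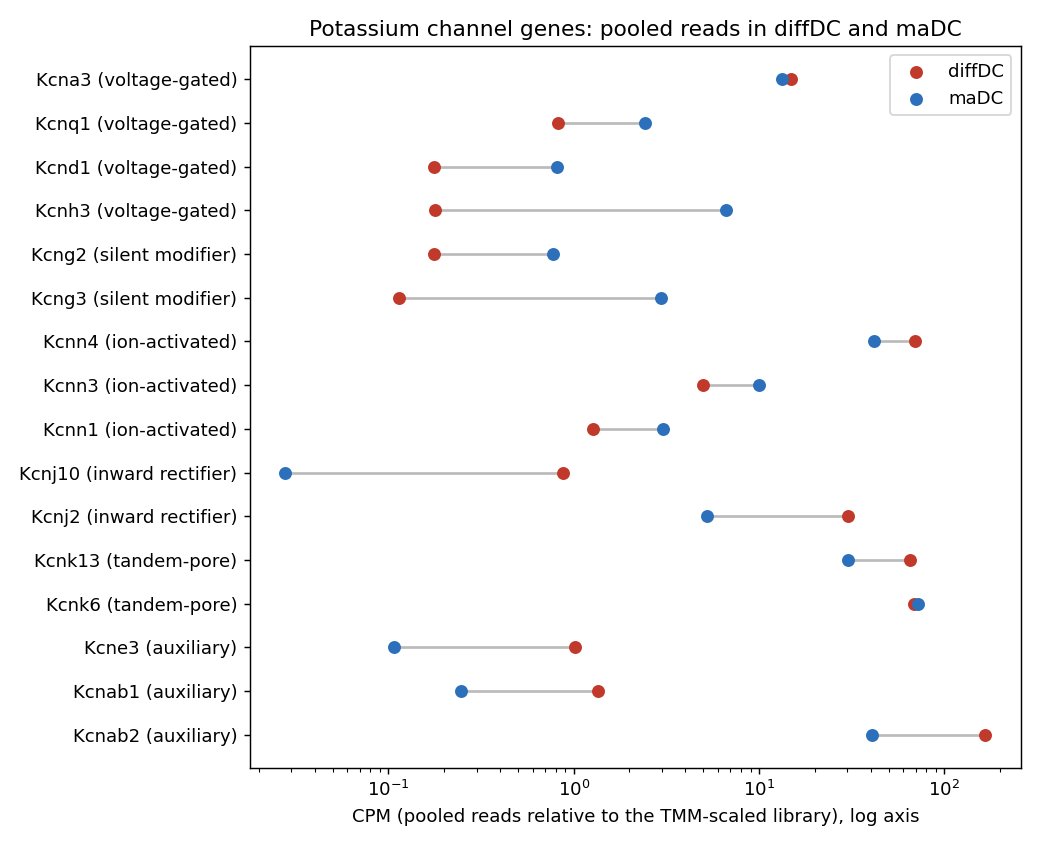
Scaled CPM (x axis, log scale) of 16 potassium channel genes in the diffDC pool (red) and the maDC pool (blue), by channel class, with a grey line joining the pools. The points of Kcna3 and Kcnk6 nearly coincide, while those of Kcnj10 and Kcnh3 lie far apart in opposite directions.

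The family as a whole was carried by a few genes. Kcnab2, Kcnn4, Kcnk6, Kcnk13 and Kcna3 had the 5 highest levels per length in both groups. Summed over the 18 genes, the level per length was 135.9 in diffDC and 73.8 in maDC. Without the auxiliary genes the sums were 88.2 in diffDC and 62.4 in maDC. The inward rectifiers summed to 5.71 in diffDC and 0.96 in maDC, the ion-activated genes to 36.2 in diffDC and 23.5 in maDC, and the voltage-gated genes to 8.13 in diffDC and 9.82 in maDC. The 24 genes under 50 reads in both groups held 256 of 41163 Kcn reads in diffDC and 348 of 15355 in maDC. They comprised 6 voltage-gated, 2 silent, 2 ion-activated, 4 inward-rectifier, 4 tandem-pore and 5 auxiliary genes and 1 other, and 3 of them were listed at 0 in diffDC.

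**Figure D4:**
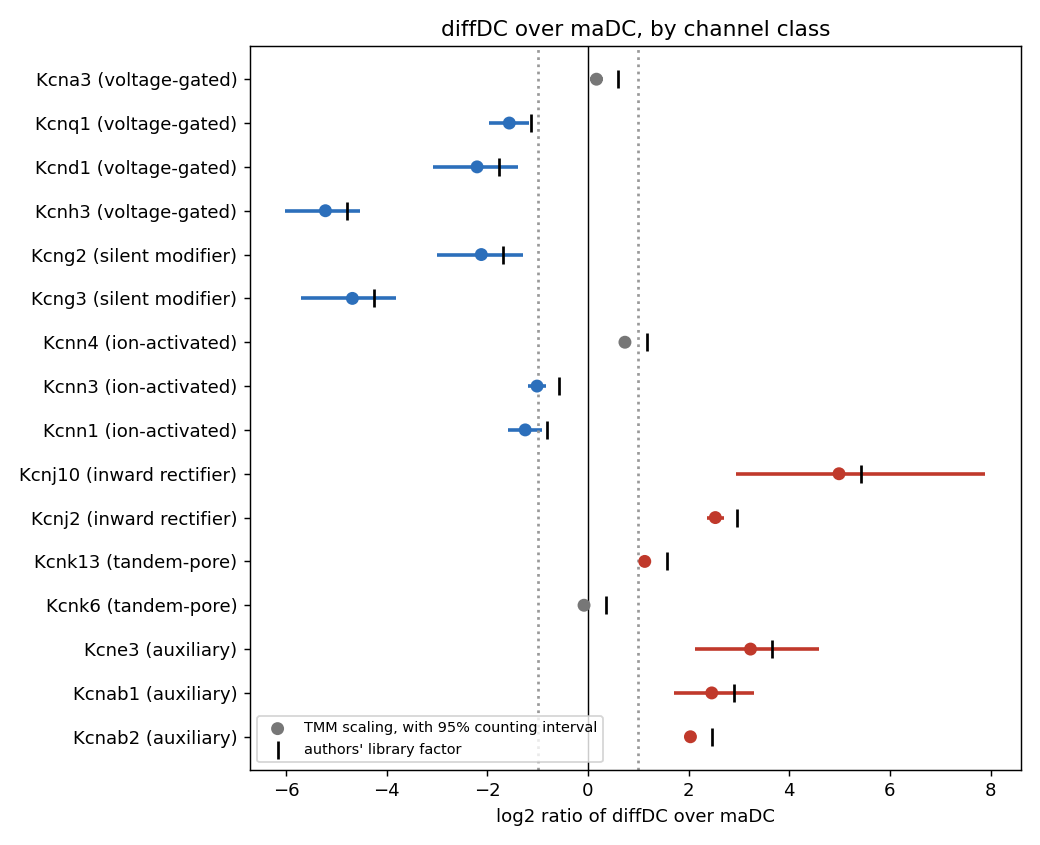
Log2 ratio of diffDC over maDC for 16 genes by channel class, with 95% counting intervals (lines) under TMM scaling and black ticks for the authors' library factor. Red marks genes called higher, blue called lower and grey not called, and dotted lines mark the 2-fold limit. The ticks lie 0.44 to the right of every point, which carries Kcnn4 past the limit and leaves Kcnn1 and Kcnn3 inside it.

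Upstream sequence is shown for pore-forming or silent members that rose (Kcnj2, Kcnk13) and that fell (Kcnn3, Kcng3), as examples of each. The fall of Kcnn3 lay near the size limit, and its call was lost with the authors' library factor and with total reads. Of the 18 genes, 11 matched the RefSeq table of start sites on GRCm38.p6. Each run holds the 250 bases before the start, read 5′ to 3′ on the strand of the gene. Capitals mark matches on either strand to the NF-kappaB consensus, to the interferon-response element GAAANNGAA, to the AP-1 site TGANTCA, to the E-box CACGTG or to the PU.1 core GAGGAA.
Kcnj2, chr11:111065914-111066163, plus strand: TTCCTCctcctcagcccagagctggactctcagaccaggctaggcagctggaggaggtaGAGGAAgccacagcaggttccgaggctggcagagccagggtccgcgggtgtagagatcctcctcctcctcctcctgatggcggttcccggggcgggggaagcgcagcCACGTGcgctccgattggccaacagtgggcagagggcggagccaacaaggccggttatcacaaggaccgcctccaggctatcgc
Kcnk13, chr12:99964249-99964498, plus strand: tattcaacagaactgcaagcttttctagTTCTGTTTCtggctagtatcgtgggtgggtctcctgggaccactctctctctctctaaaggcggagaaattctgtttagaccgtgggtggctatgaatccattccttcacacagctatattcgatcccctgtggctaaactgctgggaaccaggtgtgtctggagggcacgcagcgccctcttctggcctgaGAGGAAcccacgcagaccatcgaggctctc
Kcnn3, chr3:89519914-89520163, plus strand: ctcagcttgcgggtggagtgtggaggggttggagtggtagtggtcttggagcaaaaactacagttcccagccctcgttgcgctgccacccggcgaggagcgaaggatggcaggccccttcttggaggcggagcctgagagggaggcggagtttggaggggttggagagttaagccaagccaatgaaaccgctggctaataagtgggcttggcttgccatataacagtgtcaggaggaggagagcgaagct
Kcng3, chr17:83631896-83632145, minus strand: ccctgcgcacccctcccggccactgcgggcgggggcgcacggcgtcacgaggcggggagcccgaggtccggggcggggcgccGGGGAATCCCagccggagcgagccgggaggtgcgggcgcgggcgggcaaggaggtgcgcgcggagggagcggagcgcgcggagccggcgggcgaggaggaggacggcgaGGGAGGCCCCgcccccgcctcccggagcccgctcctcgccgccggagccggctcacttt

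Kcng3 held 2 NF-kappaB matches, and the other 3 runs held 0. Of 32851 upstream windows of this length in RefSeq, 7.25% had at least 1 such match. Kcnj2 held 2 PU.1 core matches and 1 E-box, and Kcnk13 held 1 PU.1 core match and 1 interferon-response match. A PU.1 core was present in 23.3% of windows, an E-box in 6.02% and an interferon-response match in 7.13%. Kcnn3 held no match to any of the 5 motifs. Among members not printed, Kcnj10, which rose, held no match either. Kcnn1, whose fall was lost with the authors' library factor, held 1 NF-kappaB match in 1 of its 2 windows. Of members not called, Kcna3 held 2 PU.1 core matches and Kcnn4 held 1 NF-kappaB match and 1 E-box. AP-1 matches, present in 6.75% of windows, were found in 0 of the 4 runs. The auxiliary genes, which rose, were not printed. Kcne3 held 1 AP-1 match, Kcnab1 held interferon-response, PU.1 core and E-box matches, and Kcnab2 held no match to the 5 motifs. The GC content was 65.6% for Kcnj2, 52.8% for Kcnk13, 58.8% for Kcnn3 and 82.4% for Kcng3, against a median of 52.4% over all windows. The shares of windows with a match were taken over all windows and were not matched for GC content. The matches are letters in a window, and no binding was measured here.

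Genes around the channels were called about as often as all genes. Over 7 lists, 24 of 96 genes with at least 50 reads were higher and 19 lower, or 44.8% in either direction, beside 43.9% of all genes with the same read limit. With the authors' library factor the same 96 genes gave 34 higher and 12 lower, or 35.4% and 12.5%, beside 34.5% and 13.9% of all genes. The sodium-potassium pump, which builds the gradient that the channels use, had 5 of 14 listed genes with at least 50 reads, of which 2 rose and 0 fell, with a median log2 ratio of 0.44. Its beta subunit gene Atp1b3 had a log2 ratio of -0.03. Of 10 cation-chloride cotransporters and their kinases with enough reads, 3 rose and 3 fell, with a median of 0.40, and 5 rose and 2 fell with the authors' factor. Slc12a2, which imports sodium, potassium and chloride, rose 6.00-fold (interval 5.02 to 7.24), and the kinase Stk39, which activates it, had 171 reads in diffDC and 4351 in maDC, 37.6-fold lower. Wnk2, an upstream kinase, had 4.26 reads in diffDC and 9337.56 in maDC, the largest difference of that list, and its read numbers carried decimals.

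Among 19 partners and regulators of channels, 7 rose and 3 fell, with a median of 0.67. With the authors' factor 10 rose and 2 fell, and with at least 500 reads 4 rose and 1 fell. Amigo1, an adhesion protein found with voltage-gated channels, had 650 reads in diffDC and 71 in maDC, 6.20-fold higher (interval 4.84 to 8.03), and Tmem38b, a potassium-permeable channel of the endoplasmic reticulum, fell 2.86-fold (a log2 ratio of -1.52). Of 15 genes of calcium entry and release, 3 rose and 2 fell, with a median of 0.10, and 5 rose and 1 fell with the authors' factor. Trpm2, a calcium-permeable channel gated by ADP-ribose, rose 3.91-fold (interval 3.47 to 4.40). Trpm4, a calcium-activated cation channel, had a log2 ratio of -1.60 (interval -1.69 to -1.50).

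Of 12 genes of potassium efflux and NLRP3, 2 rose and 4 fell, with a median of -0.07. With the authors' factor 2 rose and 2 fell and the median turned to 0.36, and with total reads it turned to 0.11. P2rx7, the ATP-gated channel that lets potassium out, had 11868 reads in diffDC and 2186 in maDC, 3.67-fold higher (interval 3.51 to 3.85). Casp4 and Il1b, an inflammatory caspase and the cytokine released downstream, were 6.01-fold and 5.04-fold lower. Of 17 chloride, proton and volume channels, 4 rose and 3 fell, with a median of 0.13, and 6 rose and 2 fell with the authors' factor. Clic4, an intracellular chloride channel protein, was 5.72-fold lower, and Ttyh2 was 4.16-fold higher (interval 3.99 to 4.34). The Kctd genes carry a domain like that of voltage-gated channels but form no channel. Of 18 with enough reads, 3 rose and 4 fell, with a median of 0.01, and 4 rose and 3 fell with the authors' factor. Kctd12b had 3717 reads in diffDC and 67.48 in maDC, 37.3-fold higher (interval 29.5 to 48.6), and Kctd14 had 1 read in diffDC and 2606.73 in maDC, a log2 ratio of -11.91 (interval -17.22 to -9.43). These medians stand beside 0.09 for all genes with the same read limit.

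**Figure D5:**
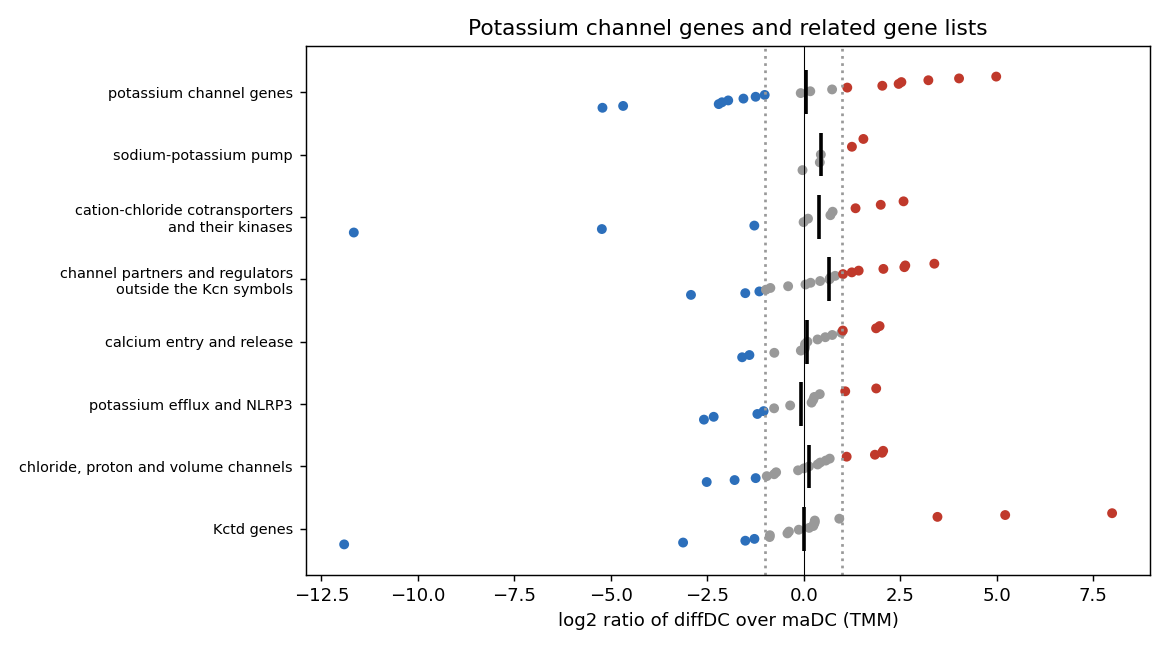
Log2 ratio of diffDC over maDC (TMM scaling) for genes with 50 reads or more in a group, 1 row per list and 1 point per gene, with the median as a black bar and the 2-fold limit dotted. Red points were called higher and blue lower. The row medians run from -0.07 to 0.67, and the potassium channel genes spread from -5.22 to 4.99.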

How the data were processed

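RNA sequencing read numbers were taken from the authors' deposited table, with 1 pooled column per group. The values carried decimals and were taken for expected counts, which the authors deposited as read numbers; they were rounded to whole numbers for the scaling and the intervals. Of the 18 members with enough reads, 12 had whole numbers in both columns within 0.005. The sources used here do not say how reads were assigned or how the 3 libraries were pooled. The submitters' processing notes name GRCm38.p4 and mm10. The deposited log2 ratio, handled as a score because 1 cell was damaged, served to recover the authors' library factor. It differed from the read ratio by a constant within 0.001 in 14572 of 14573 genes. The deposited p-values and q-values by the authors were not used.

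TMM factors came from edgeR 4.0.16 in R 4.3.3 and gave a log2 library ratio of 0.56, against 0.13 for the authors' factor, 0.38 for total reads and 0.58 for DESeq2 1.42.0 size factors. Relative to TMM, the authors' factor raised every log2 ratio by 0.44 and total reads by 0.19. Intervals were exact Clopper-Pearson for ratios and shares and exact Poisson for levels, at 95%. PCR copies and differences between cultures are outside them. Levels per length used the deposited length. A value of 0.5 replaced 0 reads.

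The members, lists and tests were chosen with earlier results of these data known. The rule named every Kcn gene with at least 50 reads in a column, with folds for those called or with at least 500 reads. Each list contributed its 2 widest ratios and the widest ratio of opposite sign, among genes with at least 500 reads. Some genes and sequences that these rules chose are not reported here, though the counts, medians and sums include them. The markers and genes beside a member were named after their values were seen. The edgeR test planned for replicate columns could not be run on pooled values. The planned protein stretches were replaced by coding bases. The filter motif was planned with tyrosine or phenylalanine between the glycines. The search also allowed leucine there and required the serine or threonine before it. List genes were joined by symbol, then by Entrez identifier through RefSeq. Calls and intervals were tested on simulated data that held counting noise only. Such data cannot show how the calls behave under spread between libraries. Coordinates are from GENCODE M21 on GRCm38. Scripts ran in Python 3.11.15 with scipy 1.17.1, numpy 2.4.6 and pandas 2.3.3, and figures were drawn in matplotlib 3.10.9.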

Additional observations from a re-analysis of the deposited data

How the results depend on the processing

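No paired analysis was possible because the table held 1 pooled column per group, and for the same reason no replicate could be left out. The counts of potassium channel genes called higher and lower, 7 and 8, became 3 and 1 with at least 500 reads in a column, and 3 and 3 with at least 50 reads in both columns. With no read minimum 20 were lower, with a 4-fold limit 4 were lower, and among genes with whole read numbers 4 were higher. The authors' library factor gave 8 higher and 6 lower. The median log2 ratio, 0.05, became 0.48 with the authors' factor, 0.23 with total reads, 0.73 with at least 500 reads, 0.17 with 50 reads in both columns, -1.18 with no minimum and -0.54 among whole read numbers. The summed level per length had a log2 ratio of 0.88, which became 1.32 with the authors' factor and 1.07 with total reads. Kcnk6 turned to 0.36 with the authors' factor and 0.11 with total reads, as did the median of the NLRP3 list, at 0.36 and 0.11. The median of the Kctd genes, near 0, turned to -0.016 with DESeq2 size factors and -0.13 with at least 500 reads. The 2 alternatives "50 reads in both columns" and "whole read numbers", and the other scalings of the summed level, were chosen after seeing the data. The other scalings shift every ratio by a constant, and the 4-fold limit changes only which genes are called. The read limits and whole read numbers change which genes are counted, and why the medians then moved was not tested. DESeq2 size factors changed the call of 0 of the 18 genes. Setting 3 reads in place of 0 could change none, because none of the 18 was at 0 in either column. The intervals are widest for genes near 50 reads, and greater depth would not replace values per library.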
